A study of Homo sapiens with 4 samples.

Results

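The heterogeneous nuclear ribonucleoprotein (hnRNP) genes described here were HNRNPA1, HNRNPA2B1, HNRNPAB, HNRNPC, HNRNPD, HNRNPH1, HNRNPH3, HNRNPK, HNRNPM and HNRNPR. Their exons were taken from a table of skipped exon events by gene symbol, and an event was used where its mean over the 4 libraries reached 20 or more junction reads (reads lying across a splice junction). An event consists of 3 exons, and transcripts either include or skip the second. Where an exon has forms of different length, each form is a separate event set against the same skipping reads. Inclusion levels of such forms are therefore not shares of all transcripts and do not add up across forms. The 10 genes had 124 events, of which 115, on 80 distinct exons, reached that depth, among 54503 such events of 65601 in the whole table. The shallowest events kept had means of 29.8 reads (HNRNPH1), 35 reads (HNRNPR) and 47.3 reads (HNRNPR), and the deepest left out had 14.3, 13.8 and 8.75 reads, all in HNRNPH1.

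The cells were 293T, a line made from human embryonic kidney that takes up transfected nucleic acid well. In 2 libraries they had received a gapmer antisense oligonucleotide (ASO) with MOE ends against SNORD89, a box C/D small nucleolar RNA, and in 2 libraries no ASO. A gapmer pairs with its target so that RNase H cuts the RNA strand. Transfection used Lipofectamine RNAiMAX with ASO at 70 nM, the medium was changed after 24 h and RNA was taken at 48 h. The libraries without ASO are marked as untreated but carry the same transfection text, so whether they received the lipid is not clear, and no control ASO is named. All cells were of 1 line grown in the same way, and poly(A) RNA was read as pairs of 150 bp. The comparison addressed how exon use differs when SNORD89 is depleted. The level of SNORD89 itself was not analysed here. The table holds the libraries as a first and a second set and does not say which set had the ASO. Its title names SNORD89 before the cells without ASO, and directions are given here only as first against second set.

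hnRNP proteins coat nascent transcripts and bind short RNA motifs through RRM or KH domains, often next to a flexible tail rich in glycine. By binding exons and introns they repress or activate splice sites, and they also act in RNA export, stability and translation. Many of them act on their own transcripts, where an alternative exon either gives another protein form or shifts the reading frame.

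The 8 exons shown here are from the set that was wholly coding, of intermediate inclusion (a mean inclusion level between 0.05 and 0.95) and read on at least 1000 junction reads per library, since the comparison rests on them. The sequences are from GENCODE release 29 transcripts, 5′ to 3′ in the sense of the RNA and with T for U, and the coordinates are those of the table in hg19. In the HNRNPH1 and HNRNPH3 exons capitals mark the positions at which the 2 exons differ. In the others capitals mark copies of GGNTA, where N is any base.

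HNRNPA2B1 36 nt, exon 2 of HNRNPA2B1-201, chr7:26237451-26237486, minus strand: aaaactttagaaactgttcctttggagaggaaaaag
HNRNPAB 141 nt, exon 7 of HNRNPAB-202, chr5:177637133-177637273, plus strand: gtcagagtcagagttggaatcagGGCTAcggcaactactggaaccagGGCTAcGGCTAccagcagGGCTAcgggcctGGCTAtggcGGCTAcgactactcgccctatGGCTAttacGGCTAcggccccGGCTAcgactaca
HNRNPD 147 nt, exon 7 of HNRNPD-201, chr4:83277690-83277836, minus strand: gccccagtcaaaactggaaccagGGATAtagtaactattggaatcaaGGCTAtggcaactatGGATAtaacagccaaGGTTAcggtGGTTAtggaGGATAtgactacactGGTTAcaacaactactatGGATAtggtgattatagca
HNRNPD 57 nt, exon 2 of HNRNPD-201, chr4:83292681-83292737, minus strand: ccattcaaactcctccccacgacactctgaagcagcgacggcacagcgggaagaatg
HNRNPH1 139 nt, exon 4 of HNRNPH1-201, chr5:179046270-179046408, minus strand: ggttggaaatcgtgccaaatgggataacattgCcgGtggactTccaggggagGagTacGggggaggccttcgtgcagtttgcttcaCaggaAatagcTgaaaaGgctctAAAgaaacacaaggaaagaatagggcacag
HNRNPH3 139 nt, exon 3 of HNRNPH3-201, chr10:70097615-70097753, plus strand: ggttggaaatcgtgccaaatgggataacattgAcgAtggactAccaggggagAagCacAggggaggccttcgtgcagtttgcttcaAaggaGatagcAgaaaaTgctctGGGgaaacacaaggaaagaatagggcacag
HNRNPK 72 nt, exon 7 of HNRNPK-201, chr9:86588817-86588888, minus strand: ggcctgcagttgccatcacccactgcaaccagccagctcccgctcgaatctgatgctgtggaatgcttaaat
HNRNPM 54 nt, exon 13 of HNRNPM-201, chr19:8548042-8548095, plus strand: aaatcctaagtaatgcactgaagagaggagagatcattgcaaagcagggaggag

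The repeats were concentrated in a subset of these exons. The HNRNPAB exon had 9 copies of GGNTA and the 147-nt HNRNPD exon 8 copies. Among 2540 and 2333 other matched exons of the table within 5 nt of these lengths, 21.3% and 22.8% held at least 1 copy, and 0 held as many. The 139-nt exons of HNRNPH1 and HNRNPH3 held 1 copy each, not marked above, where 21.5% of exons of like length held one. The exons of HNRNPA2B1, HNRNPK and HNRNPM and the 57-nt HNRNPD exon held none. GGNTA was chosen after the sequences were seen, and only the RNA sense strand was searched. 4 other motifs had been searched first, on the same strand. TAGG was present in 2 of the 8 exons, where 4.72 to 14.1% of exons of like length held it. GGGG was present in 2, where 7.87 to 36.0% held it. For TAGG and for GGGG these were the 139-nt exons of HNRNPH1 and HNRNPH3, which are nearly the same sequence and so not independent. CCCC was present in 3, where 10.2 to 38.8% held it. Runs of TTTTT were in 0, where 3.27 to 12.5% held one. The 139-nt exons of HNRNPH1 and HNRNPH3, which are close paralogs, were equal at 126 of 139 positions (90.7%).

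Total junction reads ranged from 38613055 to 43929373 per library, and 1.62 to 1.78% of them lay on the 10 genes. Library 2 of the second set stood apart in its rare skipping reads. Across the table it had exactly 1 skipping read at 1267 events, against 7751 to 9142 in the others, and it had no reads at 3280 events, against 513 to 624. Among the 115 hnRNP events it had exactly 1 skipping read at 0, against 18, 8 and 18 in the others. Of the markers of 293T cells, VIM, CDH2 and KRT8 had junction reads in every library and KRT18 and NES had no event in the table. Of the 7 genes listed for other cell types, GFAP had 3, 8, 1 and 0 reads and the rest had no event. The libraries are labelled as biological replicates of 1 line, so the tests measure the spread between these 4 libraries.

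The hnRNP exons were deeply read. The median event had a mean of 3687 reads, against 190 over all tested events. Most were included almost always: 84 of the 115 events (73.0%) had a mean inclusion level above 0.95, against 66.1% of all tested events. Another 23 (20%) were intermediate, against 24.5%, and 8 (6.96%) lay below 0.05, against 9.30%. HNRNPC held 6 of the 8 rarely included events, all in its 5′ UTR, and 6 of the 23 intermediate ones. HNRNPH1 held 5 of the intermediate events, HNRNPR 3, HNRNPA2B1 and HNRNPD 2 each, and the other 5 genes 1 each. By match to GENCODE, 82 events had a wholly coding middle exon, 10 a partly coding one, 16 one in the 5′ UTR and 6 one found only in transcripts without a coding sequence, and 1 was not matched. The 23 intermediate events lay on 21 exons, of which 8 (38.1%) had a length that is a multiple of 3, against 43.4% of the intermediate exons of the whole table.

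Very few of these events were called different between the sets. By the authors' deposited table, of the 115 events 1, in HNRNPR, had a false discovery rate (FDR) under 0.05 and a difference in inclusion level of at least 0.1, where 2.71% of all tested events did. At an FDR under 0.05 alone it was 3 events, 2 in HNRNPC and 1 in HNRNPR, against 5.72% of all. Such calls depended on depth. At a mean of at least 1000 reads, 0 of 91 hnRNP events and 0 of 7001 events in all met both thresholds. An FDR under 0.05 alone was met there by 0 of the 91 and 109 of the 7001. A quasi-binomial model, whose error is the scatter among libraries, moderated with limma, called 0 of the 115 at an adjusted p under 0.05 (0.011% of all events; smallest adjusted p of a member 0.827). Its unadjusted p was under 0.05 for 12 of the 115 (10.4%), where it was for 4.45% of all events. The hnRNP events were read more deeply than most, and several of the 12 share an exon or their skipping reads. At a mean of at least 1000 reads the count was 11 of 91 (12.1%), where it was 4.80% of 7001 events. Without library 2 of the second set the count was 5 of 115 (4.35%), against 2.81% of all events, and at a mean of at least 1000 reads 5 of 91 (5.50%), against 3.21%. A limma fit to log2 inclusion over skipping reads called 0 (0% of all events), with 3 at an unadjusted p under 0.05 (4.87% of all). That fit recovered no change in simulated reads, so its count of 0 cannot tell whether inclusion differed.

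The intermediate events differed little between the sets. Their median absolute difference was 0.0205, against 0.0548 over all 13329 intermediate events, which were read far less deeply (median of 82.8 reads, against 2389). Of the 23, 15 had a higher mean in the first set, where 6957 of all 13329 did. Several of the 23 share an exon or their skipping reads. The sets did not overlap in 8 of 23 (34.8%), where 33.4% of all intermediate events did not. At a mean of at least 1000 reads 16 hnRNP events and 451 events in all remained. There the median absolute difference was 0.0102 for the hnRNP events and 0.0132 for all, and the greatest 0.0473 and 0.0871. The libraries of 1 set differed from each other by a median of 0.00764 (first set) and 0.0139 (second set) in those 16 events. The sets did not overlap in 7 of the 16, where 37.9% of the 451 did not. The median difference between the sets lay between the medians within them. It is taken from means of 2 libraries, while the medians within sets are of gaps between single libraries, so these are not like measures.

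**Figure D1:**
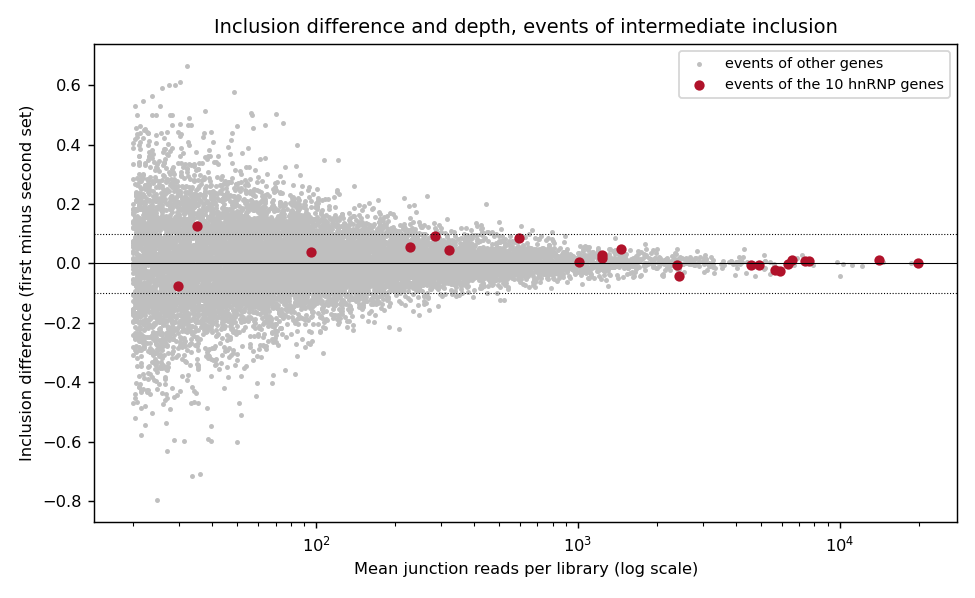
Difference in inclusion level (first minus second set, a fraction) against mean junction reads per library (log scale) for the 13329 events of intermediate inclusion, with the 23 events of the 10 hnRNP genes in red and dotted lines at a difference of 0.1. The spread narrows as reads increase, and 1 hnRNP event, in HNRNPR, lies beyond 0.1.

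**Figure D2:**
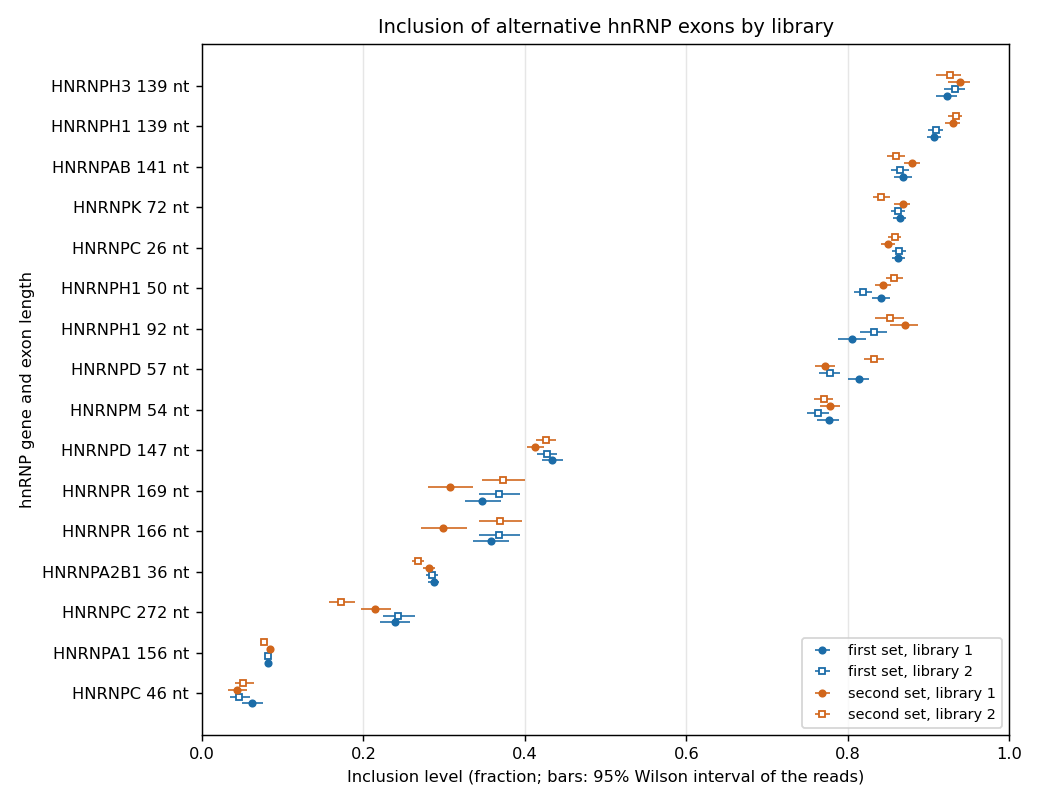
Inclusion level (fraction) in each library for the 16 hnRNP events of intermediate inclusion with a mean of at least 1000 reads, ordered by mean level, with bars for the 95% Wilson interval of the reads, which covers counting error only. Levels run from 0.0430 in HNRNPC to 0.939 in HNRNPH3. In some events the intervals of libraries lie apart, as in the 272-nt HNRNPC exon, with 0.243 in library 2 of the first set against 0.173 in library 2 of the second.

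HNRNPA1 and HNRNPA2B1 encode the abundant A/B-type proteins, which have a pair of RRM domains and a glycine-rich tail and often repress exons. Inclusion of the 156-nt HNRNPA1 exon, which lengthens the tail to give the A1B form, was 0.0816 and 0.0815 in the first set against 0.0843 and 0.0767 in the second. The second set lay on both sides of the first, and the difference was 0.00109, with an odds ratio of first to second set of 1.02 (95% interval 0.949 to 1.09). This was the most deeply read of the intermediate hnRNP exons, at a mean of 19924 reads, and most reads there were of the short form. HNRNPA1 has many near-identical processed copies in the genome, and how reads with several places were counted is not given, so its reads are uncertain.

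The 36-nt HNRNPA2B1 exon, which sets the B1 protein apart from A2, was included at 0.287 and 0.285 in the first set against 0.281 and 0.267 in the second. The sets did not overlap, but the first exceeded the second by 0.0118 and the odds ratio was 1.06 (95% interval 0.992 to 1.13; adjusted p = 0.827 by the quasi-binomial model). A 136-nt exon near the 3′ end of HNRNPA2B1, found only in transcripts without a coding sequence, was included at 0.761, 0.664, 0.676 and 0.579 in the same order of libraries. It had a mean of 597 reads, the sets overlapped, and the difference of 0.0850 was little above the SD within each set (0.0680 and 0.0689).

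HNRNPAB and HNRNPD encode related proteins that bind AU-rich RNA and DNA, and each has a repeat-rich exon near its 3′ end. The 141-nt HNRNPAB exon, with its 9 GGNTA copies, was included at 0.869 and 0.865 in the first set against 0.880 and 0.860 in the second, so the sets overlapped (odds ratio 0.969, 95% interval 0.817 to 1.15). In HNRNPD, whose product AUF1 promotes decay of many mRNAs, a pair of exons in different combinations gives the 4 known isoforms. The 147-nt exon was included at 0.434 and 0.428 in the first set against 0.413 and 0.426 in the second, without overlap and with a difference of 0.0110 (odds ratio 1.05, 95% interval 0.959 to 1.15). The 57-nt exon was included at 0.814 and 0.778 in the first set against 0.772 and 0.832 in the second. There the libraries of a set differed from each other by more than the set means, 0.796 and 0.802. The related 147-nt HNRNPD and 141-nt HNRNPAB exons thus had inclusion levels far apart in all 4 libraries.

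HNRNPC encodes a protein that binds runs of U and keeps cryptic exons from being used. Its alternative exons of intermediate inclusion all lay in the 5′ UTR. A 26-nt exon was included at 0.863 and 0.864 in the first set against 0.850 and 0.858 in the second, against skipping from the exon that ends at 21702388 to the one that starts at 21737456 on the minus strand of chromosome 14. The same skipping reads serve the 272-nt form of this exon, which shares its 3′ end (21731470), so neither level is a share of all transcripts. The 272-nt form was included at 0.239 and 0.243 in the first set against 0.215 and 0.173 in the second. Its sets did not overlap, and its difference of 0.0473 was the greatest of the 16 deep events (odds ratio 1.33, 95% interval 1.09 to 1.61; unadjusted p = 0.00387; adjusted p = 0.827 by the quasi-binomial model). Inclusion reads were 609 and 544 in the first set against 493 and 437 in the second. The lowest was library 2 of the second set, and without it the unadjusted p was 0.145. A 46-nt exon was measured against the same skipping reads. It was included at 0.0620 and 0.0456 in the first set against 0.0430 and 0.0512 in the second, so the sets overlapped. In a deeper event on this exon, with a mean of 6583 reads, inclusion was 0.0338 and 0.0281 against 0.0243 and 0.0210. There the sets did not overlap (odds ratio 1.40, 95% interval 1.10 to 1.78, unadjusted p = 0.00606 and adjusted p = 0.827 by the quasi-binomial model). They overlapped in its shallowest event, with a mean of 323 reads.

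The 2 HNRNPC events with an FDR under 0.05 in the authors' deposited table had small differences. One was an 88-nt exon of the 5′ UTR at 21704532-21704619, included at 0.0140, 0.0182, 0.0198 and 0.0464 in the order first to second set, where that table gives -0.017 as the difference and 0.00557 as the FDR. Its highest level was in library 2 of the second set. In a deeper event on this exon, with a mean of 7028 reads, inclusion was 0.00412 and 0.00607 against 0.00776 and 0.00938. The sets did not overlap there (unadjusted p = 0.00979 and adjusted p = 0.827 by the quasi-binomial model). The other event with an FDR under 0.05 was on the 26-nt exon and shallower, with a mean of 51.3 reads. Inclusion there was 1, 1, 1 and 0.879. The authors' deposited table gives 0.06 as the difference, with an FDR of 0.0358, and all 8 of its skipping reads were in library 2 of the second set.

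HNRNPH1 and HNRNPH3 belong to the group that binds runs of G. The 139-nt HNRNPH1 exon shown here has a length that is not a multiple of 3, so skipping it shifts the reading frame. It was included at 0.907 and 0.909 in the first set against 0.930 and 0.933 in the second, on 354, 302, 186 and 197 skipping reads. The sets did not overlap, and their difference was -0.0239, with an SD of 0.00124 and 0.00208 within the sets. Each SD rests on 2 libraries and is smaller than counting error allows for. The 95% Wilson interval of library 1 of the first set alone ran from 0.898 to 0.916. The odds ratio of first to second set was 0.720 (95% interval 0.571 to 0.908; unadjusted p = 0.00497; adjusted p = 0.827 by the quasi-binomial model over all events), and the authors' deposited table gives an FDR of 0.0789. Without library 2 of the second set the unadjusted p was 0.0259. A shorter 92-nt form of this exon uses the same skipping reads and is not a separate observation. It was included at 0.806 and 0.833 in the first set against 0.870 and 0.852 in the second (odds ratio 0.727, 95% interval 0.572 to 0.924).

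The paralogous 139-nt exon of HNRNPH3 did not repeat this pattern beyond its error. It was included at 0.923 and 0.933 in the first set against 0.939 and 0.926 in the second, the sets overlapped, and the odds ratio was 0.924 with a 95% interval of 0.629 to 1.36, which includes the odds ratio of HNRNPH1. The difference between the paralogs was not tested. Because of their likeness, reads could be placed on the wrong paralog, and the aligner's handling of such reads is not given. Exon 5 of HNRNPH1-201 (179 nt), beside the 139-nt exon, had a difference of the other sign in an event with a mean of 284 reads. The junction from 179045324 to 179047892 counts both as inclusion there and as skipping of the 139-nt exon. Inclusion reads were 354, 302, 189 and 197, nearly those skipping reads, so this is not a separate observation. Exon 5 was included at 0.9219 and 0.8436 in the first set against 0.7975 and 0.7849 in the second, without overlap. The difference was 0.0916, and the authors' deposited table gives an FDR of 0.0595. In its other events, with means of 2899 and 3686.5 reads, the mean inclusion level was 0.998 and 0.9997. A 50-nt, partly coding exon near the 3′ end of HNRNPH1 was included at 0.841 and 0.819 in the first set against 0.844 and 0.857 in the second (odds ratio 0.861, 95% interval 0.747 to 0.993; adjusted p = 0.827 by the quasi-binomial model). Without library 2 of the second set its unadjusted p was 0.231, against 0.0390 with it.

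HNRNPK encodes a KH-domain protein that binds C-rich RNA and DNA. Its 72-nt coding exon was included at 0.864 and 0.863 in the first set against 0.868 and 0.842 in the second, with overlap (odds ratio 1.07, 95% interval 0.933 to 1.23). HNRNPM encodes a protein with several RRM domains that binds GU-rich RNA. Its 54-nt coding exon was included at 0.776 and 0.763 in the first set against 0.778 and 0.770 in the second, also with overlap (odds ratio 0.974, 95% interval 0.853 to 1.11). Both intervals include an odds ratio of 1 and leave room for modest differences in either direction.

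HNRNPR, a relative of SYNCRIP with several RRM domains, held the called event. This was a 136-nt coding exon at 23648021-23648156 on the minus strand of chromosome 1, exon 7 of HNRNPR-201, with skipping from 23640195 to 23660010 that also leaves out neighbouring exons. Reads were 43 and 23 in the first set against 34 and 40 in the second, and inclusion was 1, 1, 1 and 0.748. All 6 skipping reads came from library 2 of the second set, so the sets overlapped. The authors' deposited table gives 0.126 as the difference, with an FDR of 0.0286, the quasi-binomial unadjusted p was 0.119, and the difference was 0 without that library. In the other events on this exon, with means of 1110 and 2465 reads, the mean inclusion level was 0.998 and 0.999. The exon near the 5′ end of HNRNPR, partly coding, had ends 3 nt apart. Its 166-nt form was included at 0.358 and 0.368 in the first set against 0.299 and 0.369 in the second, and its 169-nt form at 0.347, 0.368, 0.307 and 0.373. Both forms were lowest in library 1 of the second set, share their skipping reads, and overlapped between sets.

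Exons that were almost always included differed by small amounts. The 120-nt coding exon of HNRNPA2B1 was included at 0.992 and 0.992 in the first set against 0.990 and 0.986 in the second, on 59, 63, 102 and 116 skipping reads, without overlap (unadjusted p = 0.0425). The 169-nt coding exon of HNRNPAB had 13 and 10 skipping reads in the first set against 2 and 0 in the second, on a mean of 10355 reads (unadjusted p = 0.0106). The 39-nt coding exon of HNRNPM had 0, 1, 3 and 20 skipping reads, most of them in library 2 of the second set (unadjusted p = 0.00496). In HNRNPK a 98-nt coding exon had 0, 0, 0 and 8 (unadjusted p = 0.0304). These p-values are from the quasi-binomial model, and the smallest adjusted p of any hnRNP event was 0.827. The 4 exons were picked from the 12 events with an unadjusted p under 0.05. Without library 2 of the second set their unadjusted p was 0.229 (HNRNPA2B1), 0.0544 (HNRNPAB), 0.220 (HNRNPM) and 1 (HNRNPK).

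Other genes of the family were listed for comparison by name. Of 23 names 18 had a tested event, with 148 events in all. The authors' deposited table called 2 of these higher in the first set, where 1.34% of all events were, and 0 lower. One, in RALY, was included at 1, 1, 1 and 0.697, low only in library 2 of the second set. The other, in PTBP3, was included at 0.912, 0.974, 0.6 and 0.579, on 12 and 15 reads in the second set. The quasi-binomial model called 0 of the 148.

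The ratio of reads between the sets was compared along the hnRNP genes. For each gene of at least 3 distinct tested exons, the log2 ratio of second to first set, in junction reads per 1000000 of the library, was taken at the 5′-most and at the 3′-most exon. The 3′ ratio exceeded the 5′ ratio in 10 of the 10 hnRNP genes, where it did in 76.9% of 6442 genes, with medians of 0.38 and 0.31 on the log2 scale. Between libraries of the same set the hnRNP medians were 0.10 (first set) and -0.12 (second set), and those of all genes 0.12 and -0.09. Taking library 2 over library 1 of the first set, the 3′ ratio was the higher in 9 of the 10, where it was in 64.0% of all genes, and in the second set in 4 of the 10, where it was in 43.3%. In 5 of the 10 genes (HNRNPA1, HNRNPC, HNRNPD, HNRNPAB and HNRNPR) the libraries of 1 set differed by more than the sets did, as in HNRNPA1, with -1.19 within the second set against 0.24 between the sets. The 3′-most HNRNPA1 exon had only 226, 298, 425 and 197 reads, so its values are uncertain. At the exon before it, with 32378 to 47276 reads, the log2 ratio of the sets was 0.32, against 0.09 at the 3′-most and -0.15 at the 5′-most exon. In HNRNPK the 5′-most exon had 5902 and 5211 reads in the first set against 4155 and 3363 in the second, and the 3′-most exon 7940 and 8227 against 8923 and 7791. The shift there was the greatest of the 10, at 0.61, and that of HNRNPR the smallest, at 0.08. In HNRNPH3 the 5′-most exon, which is the 139-nt exon above, had 2777, 2624, 2238 and 1916 reads and the 3′-most exon 2046, 2063, 2213 and 2409. The part of this 5′ to 3′ difference in the inclusion levels was not tested.

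**Figure D3:**
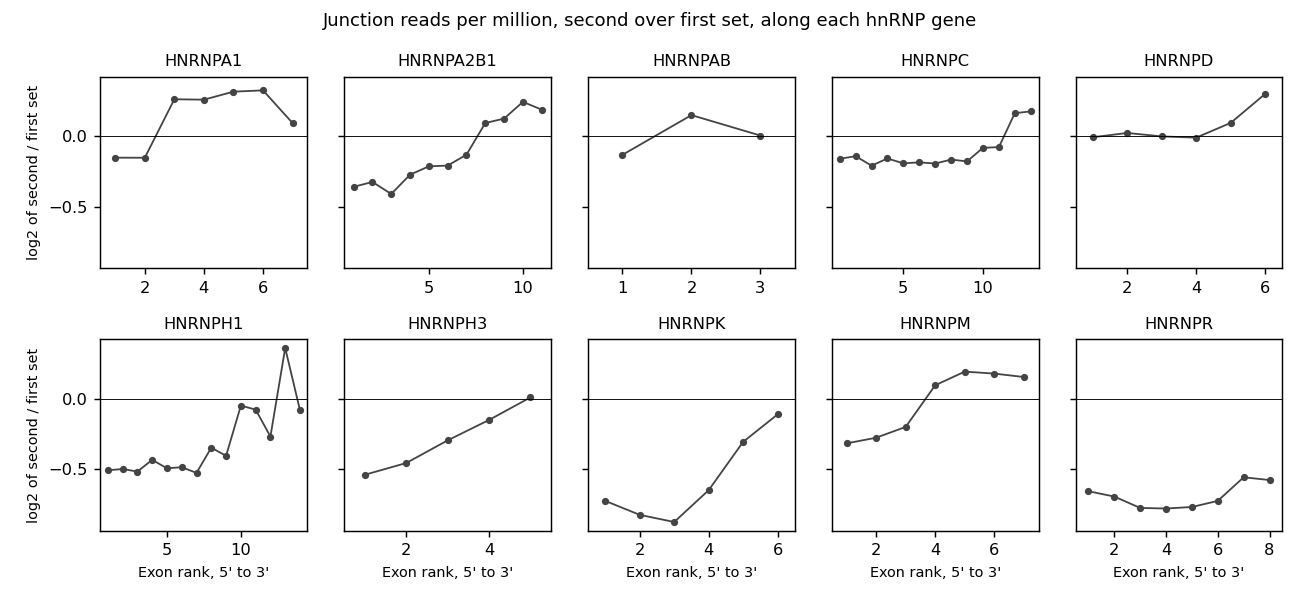
Log2 ratio of second to first set in junction reads per 1000000 at each distinct tested exon of the 10 hnRNP genes, ordered from 5′ to 3′ by rank, with the horizontal line at equal reads. The last point of each gene lies above the first, by 0.08 in HNRNPR to 0.61 in HNRNPK, while single exons between them, such as those of HNRNPA1, do not follow a straight line.

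Whether a gene had more reads in the first or the second set depended on the scaling. Junction reads were summed over the events of a gene, which counts reads that serve several events more than once and is not an expression level. In bulk samples fewer cells with a transcript and less RNA per cell cannot be told apart. With scaling by the median ratio over genes, limma called 4 of 10 genes, where it called 40.6% of 10383 genes. All 4 were lower in the first set, where 20% of all genes were: HNRNPA1 (log2 difference -0.55, adjusted p = 0.0168), HNRNPD (-0.44, 0.0232), HNRNPAB (-0.40, 0.0257) and HNRNPM (-0.37, 0.0392). With scaling to total reads the median gene moved by 0.39 on the log2 scale, and limma called 3 of 10, where 40.9% of all genes were called. Those were higher in the first set, where 37.6% of all genes were: HNRNPR (0.70, adjusted p = 4.07e-05), HNRNPK (0.55, 0.000327) and HNRNPH1 (0.40, 0.00429). None were lower, where 3.38% of all genes were. No gene was called under both of these scalings. The split of all calls moved with them as well, from 50.6% higher in the first set to 91.7%.

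**Figure D4:**
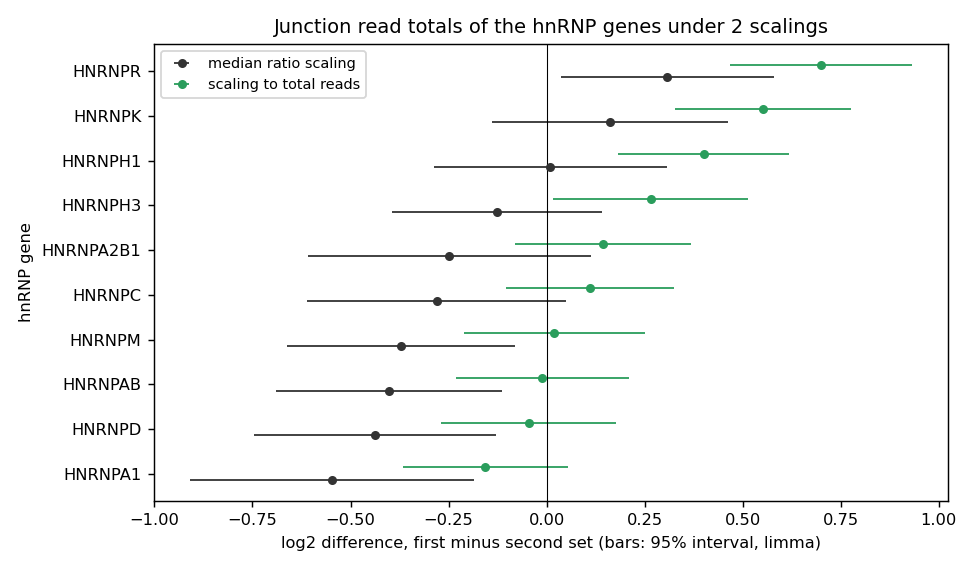
Log2 difference in summed junction reads (first minus second set) of the 10 hnRNP genes with the 95% interval from limma, under scaling by the median ratio and to total reads. Every gene moves to the right under scaling to total reads, by about the shift of the median gene, 0.39.

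The genes also differed in level. The level was taken as the median over a gene's exons of junction reads per 1000000 and per 100 nt of the junction length. HNRNPA1 was the highest, with 275 and 262 in the first set against 272 and 286 in the second. HNRNPA2B1 followed with 149, 153, 158 and 124, clear of HNRNPA1 in every library, and then HNRNPC with 120, 105, 91.3 and 111. HNRNPAB and HNRNPK had means over the 4 libraries of 84.8 and 82.2, and their order changed with the set. HNRNPK, with 109 and 96.7, lay above HNRNPAB, with 89.6 and 87.8, in the first set. In the second it lay below, with 65.8 and 57.3 against 82.6 and 79.3. The range of HNRNPK also overlaps those of HNRNPC and HNRNPD, though within every library HNRNPK lay below HNRNPC and above HNRNPD. HNRNPD (60.4) and HNRNPM (51.4) followed, and then HNRNPH1 (28.3), HNRNPR (19.9) and HNRNPH3 (14.5). HNRNPH1 lay below HNRNPM and above HNRNPR in every library. HNRNPR lay above HNRNPH3 in every library, by little in the second set (14.1 and 15.4 against 13.4 and 14.0). The ranges of HNRNPR and HNRNPH3 over the 4 libraries overlapped.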

How the data were processed

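The data were 1 table of skipped exon events for 4 libraries. Its columns are, per the file headers, those of rMATS output counted on junction reads. The submitters' processing notes list cutadapt, STAR and the build hg19; versions, settings, the annotation release and the handling of reads with several places are not given in the sources used here. The deposited table gives inclusion and skipping reads per library as counts that share a cell within each set, inclusion levels as fractions corrected by the authors for form length, their difference as a score from -1 to 1, and the authors' p-value with its FDR. Recomputing the inclusion levels gave the deposited values within 0.0005. Columns of per-sample values left unused numbered 0.

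Libraries are named by their place in a cell, since replicate numbers are not in the table. The 10 genes, the other lists and the tests were chosen with earlier results of these data known. Named were events called by the authors' test (FDR under 0.05 and a difference of at least 0.1), events called by the quasi-binomial model, and per gene the up to 3 deepest intermediate events on distinct exons. Tests were fitted to all events with a mean of at least 20 reads and adjusted by Benjamini-Hochberg over them. The quasi-binomial model took its dispersion prior from limma 3.58.1 (R 4.3.3), over events with a binomial variance sum of at least 5, and was never under 1. This is version 3 of the prior: version 1 (all varying events) and version 2 (a trend over them) recovered too few changes in simulated reads. The versions were compared with the counts of the real table in view, which were 0, 6 and 6 events, with 0 hnRNP events in each. limma on the log2 ratio used a pseudocount of 0.5 reads and recovered no change in simulated reads, so its count says nothing on stability. Odds ratios are of inclusion to skipping reads, with a 95% interval. Library intervals are 95% Wilson intervals and cover counting error only, as PCR copies were not marked by molecular identifiers.

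Gene totals were to be tested by a negative binomial count model. Because cells joining 2 libraries could not be checked as count columns, limma with trend on log2 reads per 1000000 (pseudocount 0.5) was used in its place, scaled by the median ratio over genes. Exons were matched to GENCODE release 29 by the lengths and spacing of the 3 exons: 114 of 115 hnRNP events and 97.2% of all tested events matched. No coordinate was converted. The sequence of the HNRNPA1 exon is not reported here.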

Additional observations from a re-analysis of the deposited data

How the results depend on the processing

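No paired analysis was possible because the table joins the reads of a set in a single cell without replicate numbers. The authors' test called 1 hnRNP event in all, which became 0 at a mean of at least 50 reads, at a difference of at least 0.2, at an FDR under 0.01 and with 1 event per exon, and 2 at a difference of at least 0.05. With 1 library left out at a time the test was not rerun, and only the difference of the called event was recomputed. It was 0 without library 2 of the second set and stayed at least 0.1 without each other library. The call stayed at 1 with a minimum of 10 reads, with no minimum and with the adjustment over tested events only. The quasi-binomial count was 0 with 10 or 50 reads and with a dispersion trend chosen after seeing the data. limma at a pseudocount of 0.5 or 1 also called 0. It recovered no change in simulated reads at 0.5, so its counts say nothing on stability. Of 18 named differences in inclusion, 14 to 18 kept their sign under each of 6 settings. That of the HNRNPR exon was 0.252 without library 1 of the second set.

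For gene totals, the count of 4 became 2 with the deepest event of each gene and 0 to 3 without 1 library at a time (0 without library 1 of the first set, 0 without library 1 and 1 without library 2 of the second). With only the 5′-most exon it was 0 and with only the 3′-most 1; these and both other scalings were chosen after seeing the data. It was 4 without a filter, and 3 and 5 under scaling to total and by quantiles, all then higher in the first set. Signs turned as follows on the log2 scale. By quantiles HNRNPA1 was 0.088, HNRNPA2B1 0.40, HNRNPAB 0.018, HNRNPC 0.32, HNRNPH3 0.17 and HNRNPM 0.072. By totals HNRNPA2B1 was 0.14, HNRNPC 0.11, HNRNPH3 0.27 and HNRNPM 0.020. With the deepest event HNRNPH3 was 0.27, HNRNPK -0.16 and HNRNPM 0.043. With the 5′-most exon HNRNPH3 was 0.039, and with the 3′-most HNRNPH1 was -0.13 and HNRNPK -0.10. Without library 1 of the first set HNRNPH1 was -0.016; over the 4 such fits it ranged from -0.016 to 0.035. The cause of these changes was not tested. The planned negative binomial count models, for gene totals and for inclusion against skipping reads, were not run because cells joining 2 libraries could not be checked as count columns.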
